A study of Mus musculus with 11 samples.

Results

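*Meg3*, *Rian*, *Mirg*, *Dlk1*, *H19* and *Igf2* are imprinted genes, transcribed from the allele of 1 parent, and their counts were followed in hepatocytes isolated from mice with and without *Xbp1* in the liver. The 6 genes were picked by name, with earlier results of the same counts known, from the 54232 genes in the count files, and each was found once by its Ensembl identifier in GENCODE M21 on GRCm38. Their levels between the groups therefore chose them, and their differences, and whether they passed a threshold, are given as a description that supports nothing. *Xbp1* encodes a transcription factor of the unfolded protein response, and the study set *Xbp1* LKO mice, in which Cre under the albumin promoter deletes the floxed gene in hepatocytes, against *Xbp1* fl/fl controls. All mice were adult C57BL/6 males. Each genotype was kept on chow or on the high fat sugar (HFS) diet, a Western diet with fructose and glucose in the drinking water, for at most 6 weeks. The count files held 3 libraries from *Xbp1* fl/fl and 2 from *Xbp1* LKO mice on chow, each from 1 mouse. On the HFS diet they held 3 libraries from each genotype, each from a pool of 2 mice. The spread of the HFS groups is thus a spread between pools and that of the chow groups a spread between animals. For its RNA-seq pathway analysis, the paper's figure legend gives the chow-fed *Xbp1* LKO group more samples than these files hold. The sources used here do not explain the difference.

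*Meg3*, *Rian* and *Mirg* are non-coding RNAs that lie one after the other, on the same strand, in the Dlk1-Dio3 cluster, and are made from the maternal allele. Many miRNA and snoRNA genes lie within and between them, and they are abundant in fetal and placental tissue, and low in adult liver. *Dlk1*, a membrane protein related to the Notch ligands, and *Rtl1* and *Dio3* come from the paternal allele of the same cluster. *H19*, a non-coding RNA of the maternal allele, and *Igf2*, a growth factor of the paternal allele, form a second cluster and are both highly expressed in fetal liver and silenced after birth. Counts per gene do not separate the alleles.

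The small RNAs show what the *Meg3*, *Rian* and *Mirg* transcripts carry. RefSeq (GRCm38.p6) places 61 miRNA genes with 114 mature miRNAs between *Dlk1* and *Dio3*, of which 2 genes lie on the strand of *Meg3* within its span, 3 in *Rian* and 14 in *Mirg*. The mature miRNAs of *Meg3* and *Rian*, the transcripts that the largest differences concern, are printed 5′ to 3′ with the seed, bases 2 to 8, in capitals. Those within *Meg3* are as follows.
miR-1906: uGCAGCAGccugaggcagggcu
miR-770-5p: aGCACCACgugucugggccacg
miR-770-3p: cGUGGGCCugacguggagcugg
*Rian* holds the next group.
miR-341-5p: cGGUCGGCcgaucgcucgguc
miR-341-3p: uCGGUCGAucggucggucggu
miR-1188-5p: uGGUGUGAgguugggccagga
miR-1188-3p: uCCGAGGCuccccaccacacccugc
miR-370-5p: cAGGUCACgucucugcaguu
miR-370-3p: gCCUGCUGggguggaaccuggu
Of the 104 different seeds in the cluster, 9 were shared by 2 mature miRNAs of different names. The *Mirg* miRNAs miR-453 and miR-496a-5p are such a pair, and miR-410-5p, also of *Mirg*, shares its seed with miR-494-5p, which lies between *Rian* and *Mirg*.
miR-453: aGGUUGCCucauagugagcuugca
miR-496a-5p: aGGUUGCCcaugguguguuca
miR-410-5p: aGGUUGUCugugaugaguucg
miR-494-5p: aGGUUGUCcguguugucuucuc
*H19* holds a single miRNA gene.
miR-675-5p: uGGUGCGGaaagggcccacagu
miR-675-3p: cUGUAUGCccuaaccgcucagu
The RNA libraries were not made for molecules of this length, and mature miRNAs were not measured. Over the 67 miRNA genes that GENCODE annotates between *Dlk1* and *Dio3* the files held 6 counts in all, 5 of them in chow-fed *Xbp1* LKO hepatocytes and 1 in HFS-fed *Xbp1* LKO hepatocytes. The 23 snoRNA genes of the region had 3 counts, all in the chow-fed *Xbp1* LKO libraries. The miRNA genes *Mir675*, within *H19*, and *Mir483*, within *Igf2*, had no count.

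Total counts ran from 19191032 to 23888401 per library. *Xbp1* itself was at 194 to 221 CPM (counts per 1e+06 counts, scaled by edgeR's TMM factors) in chow-fed and 242 to 301 CPM in HFS-fed *Xbp1* fl/fl libraries, and at 95.7 to 135 CPM in the *Xbp1* LKO libraries, below every control. Summed over 18 hepatocyte markers, the level was 136470 to 190500 CPM in *Xbp1* fl/fl and 56737 to 105960 CPM in *Xbp1* LKO libraries, so the labelled cell type was present throughout. Of the 18, edgeR called 3 lower on chow (*Alb*, *F2* and *Serpina1a*) and 2 lower on the HFS diet (*Apoa1* and *F2*), and 15 were negative on each diet. Without the second chow-fed or the second HFS-fed *Xbp1* LKO library the calls of that diet numbered 0. Fewer cells of a type and less RNA per cell cannot be told apart in such counts. Markers of other liver cells were present at low levels, and their values are given beside the members further on. Of the 6 members, *Meg3*, *Rian*, *Mirg* and *H19* passed edgeR's filter on low counts and *Dlk1* and *Igf2* did not. A gene that is high in 1 group only can pass through that group.

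*Meg3* (ENSMUSG00000021268), a lincRNA, spans bases 109541001 to 109571726 on the plus strand of chromosome 12, with 18089 exonic bases. On chow its level was 0.772, 0.520 and 0.797 CPM in the *Xbp1* fl/fl libraries, from 14, 9 and 16 counts. The *Xbp1* LKO libraries had 60.5 and 49.4 CPM, from 1419 and 1131 counts. Both *Xbp1* LKO mice were far above all 3 controls, and the groups did not overlap. On the HFS diet *Meg3* was at 0.524, 0.458 and 0.196 CPM in *Xbp1* fl/fl pools, whereas *Xbp1* LKO pools reached 13.4, 2.79 and 21.9 CPM. The groups again lay apart, with the second *Xbp1* LKO pool closest to the controls. Group means were 0.696 ± 0.153 (SD, n = 3) and 55.0 ± 7.86 CPM (SD, n = 2) on chow, and 0.393 ± 0.174 and 12.7 ± 9.59 CPM (SD, n = 3 each) on the HFS diet. The fitted level was 77.8-fold higher in *Xbp1* LKO hepatocytes on chow (log2 standard error 0.69) and 31.9-fold higher on the HFS diet (log2 standard error 0.72). Per kilobase of exon, *Meg3* ranked 16938th of 54165 genes in chow-fed controls and 6573rd in chow-fed *Xbp1* LKO hepatocytes, and 18433rd and 10169th on the HFS diet. In the same order, only 21128, 20824, 21305 and 22711 of these genes were above 0.

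*Rian* (ENSMUSG00000097451), a processed transcript that hosts box C/D snoRNAs, starts downstream of *Meg3* and spans bases 109603940 to 109661716 of chromosome 12, with 18234 exonic bases. Chow-fed *Xbp1* fl/fl libraries had 22, 10 and 3 counts, or 1.21, 0.578 and 0.149 CPM. The 2 chow-fed *Xbp1* LKO libraries had 750 and 532 counts, or 32.0 and 23.2 CPM, and did not overlap with the controls. On the HFS diet the 3 *Xbp1* fl/fl pools had 3, 5 and 0 counts, or 0.143, 0.255 and 0 CPM. Their *Xbp1* LKO counterparts had 236, 39 and 501 counts, or 9.61, 1.45 and 19.2 CPM, with the second pool lowest, as for *Meg3*, but still above each control pool. Fitted levels were 43.1-fold higher on chow (log2 standard error 0.90) and 73.7-fold higher on the HFS diet (log2 standard error 1.07) in *Xbp1* LKO hepatocytes. The HFS value rests on 8 counts in the controls, and the ratio of the pooled CPM had a 95% counting interval of 38.6 to 178, which covers counting error only, like the other intervals here.

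*Mirg* (ENSMUSG00000097391), a lincRNA that holds 14 of the miRNA genes, spans bases 109729764 to 109749460 of chromosome 12, with 7292 exonic bases. It was detected with 3 counts in the first *Xbp1* fl/fl library on chow and none in the other two. The chow-fed *Xbp1* LKO libraries had 56 and 35 counts, or 2.39 and 1.53 CPM, and the ratio of the pooled levels was 36.3 with an interval of 12.05 to 179.5. Among the HFS-fed *Xbp1* fl/fl pools *Mirg* had 2, 9 and 0 counts, and among the *Xbp1* LKO pools 18, 0 and 25 counts, or 0.733, 0 and 0.958 CPM. These groups overlapped, since the second *Xbp1* LKO pool was at 0 and the second control pool at 0.458 CPM. The ratio of the pooled levels was 3.08, with an interval of 1.56 to 6.62.

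**Figure D1:**
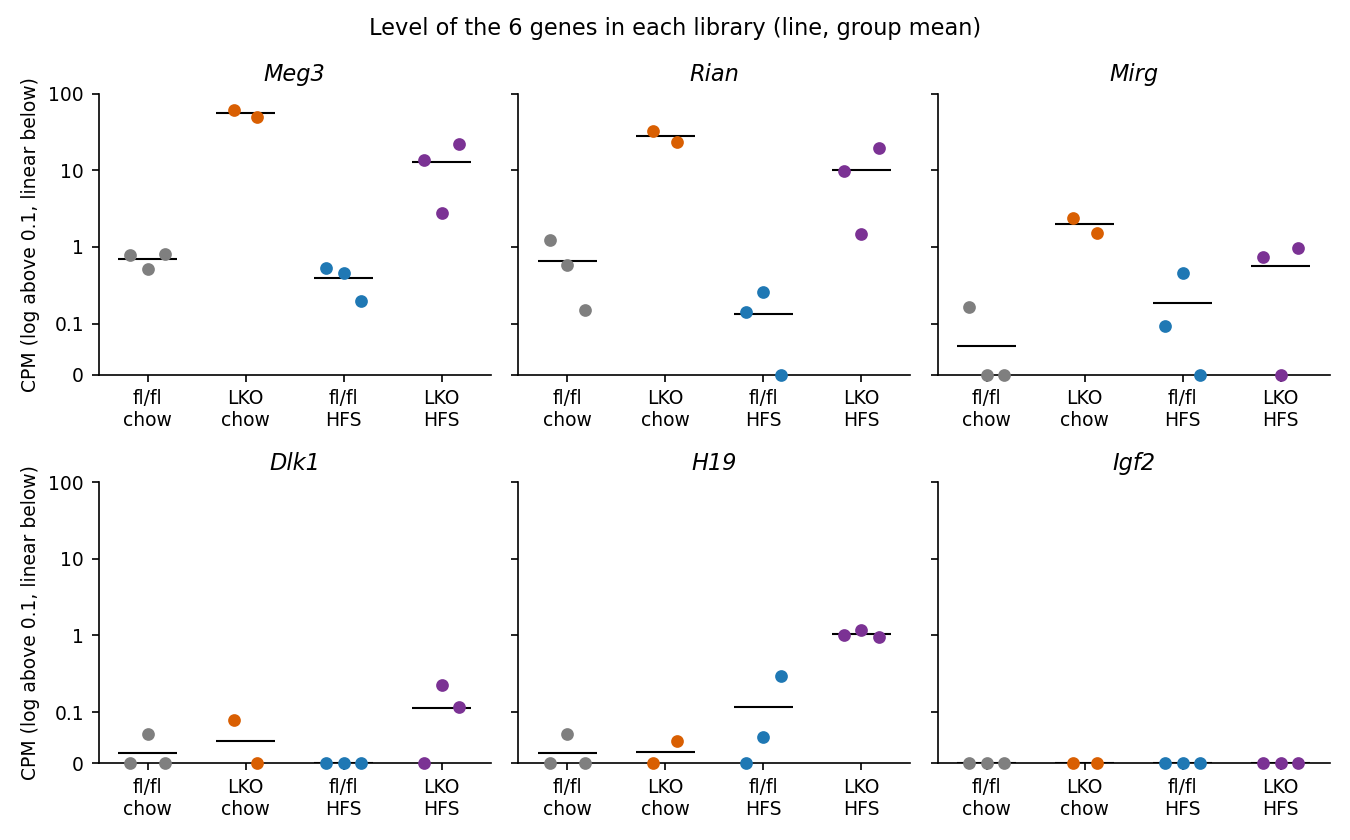
Level of the 6 genes in each of the 11 libraries, by genotype and diet (x axis), in CPM (y axis, logarithmic above 0.1 and linear below). Points are libraries and lines group means; *Meg3* and *Rian* of every *Xbp1* LKO library lie above every control, *H19* lies near 1 CPM in the HFS-fed *Xbp1* LKO pools, and *Igf2* is at 0 throughout.

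Taken as 1 unit, the summed level of *Meg3*, *Rian* and *Mirg* was 2.15, 1.10 and 0.946 CPM in chow-fed *Xbp1* fl/fl and 94.9 and 74.2 CPM in chow-fed *Xbp1* LKO libraries. With HFS feeding it was 0.762, 1.17 and 0.196 CPM in *Xbp1* fl/fl and 23.8, 4.24 and 42.1 CPM in *Xbp1* LKO pools. The *Xbp1* LKO pools thus spread over a 9.93-fold range, against 1.28-fold between the 2 chow-fed *Xbp1* LKO mice. *Xbp1* in the same 3 pools, in the same order, was at 117, 97.3 and 135 CPM, so the pool lowest for the unit was also the lowest of the 3 for *Xbp1*. The 2 chow-fed *Xbp1* LKO mice went the other way. *Xbp1* was at 95.7 CPM in the first, which had the higher unit level, and at 128 CPM in the second. These *Xbp1* counts are over the whole gene and do not measure the degree of its deletion.

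The proportions within the unit varied less than its level. *Rian* made up 34.6% and 32.0% of the *Rian* and *Meg3* counts in the chow-fed *Xbp1* LKO libraries (95% exact intervals 32.6% to 36.6% and 29.8% to 34.3%). Among HFS-fed *Xbp1* LKO pools the share was 41.7%, 34.2% and 46.7%, with intervals of 37.6% to 45.9%, 25.6% to 43.7% and 43.7% to 49.7%. The second of these pools overlapped with the chow-fed libraries and the other two were above them. *Mirg* held 2.06% to 3.08% of the summed counts in the 4 *Xbp1* LKO libraries in which it was found. In the controls the share of *Rian* ran from 0.0% (interval 0.0% to 60.2%) to 61.1% (interval 43.5% to 76.9%), too wide to compare.

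**Figure D2:**
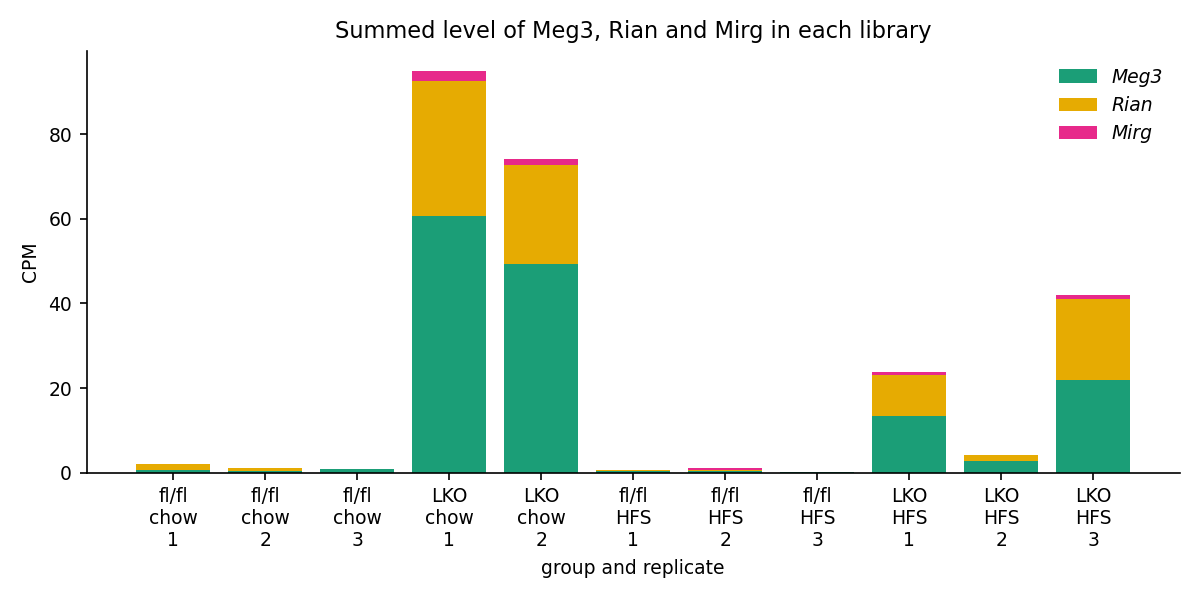
Summed level of *Meg3*, *Rian* and *Mirg* in CPM (y axis) for each library (x axis, group and replicate), as stacked bars from 0. The chow-fed *Xbp1* LKO libraries reach 94.9 and 74.2 CPM and the HFS-fed *Xbp1* LKO pools 23.8, 4.24 and 42.1 CPM, while no control exceeds 2.15 CPM.

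Levels between genes were compared per kilobase of exon. In the chow-fed *Xbp1* LKO libraries *Meg3* was at 3.35 and 2.73 CPM per kb, *Rian* at 1.75 and 1.27, and *Mirg* at 0.328 and 0.210, an order without overlap. In the HFS-fed *Xbp1* LKO pools *Meg3* was at 0.743, 0.154 and 1.21 CPM per kb and *Rian* at 0.527, 0.0795 and 1.05. *H19* was at 0.414, 0.484 and 0.390 CPM per kb there. Across the pools the ranges of these 3 genes overlapped. Within each pool *Meg3* was above *Rian*, while *H19* was the highest of the 3 in the second pool and the lowest in the first and the third.

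Promoter windows of the 3 unit genes are shown because the genes were high in the same libraries. Each holds 250 bases before and 50 bases after the first base of the RefSeq gene (GRCm38.p6, plus strand). Capitals mark TGACGTCA, the cAMP response element bound by CREB and ATF factors. The *Meg3* window is chr12:109540746-109541045, the *Rian* window chr12:109603695-109603994 and the *Mirg* window chr12:109734731-109735030.
Meg3 promoter: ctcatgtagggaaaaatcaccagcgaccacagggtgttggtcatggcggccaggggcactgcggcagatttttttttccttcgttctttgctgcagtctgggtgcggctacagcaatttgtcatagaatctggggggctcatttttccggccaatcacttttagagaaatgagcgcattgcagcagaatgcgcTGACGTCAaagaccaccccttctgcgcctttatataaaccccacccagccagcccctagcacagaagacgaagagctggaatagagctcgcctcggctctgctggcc
Rian promoter: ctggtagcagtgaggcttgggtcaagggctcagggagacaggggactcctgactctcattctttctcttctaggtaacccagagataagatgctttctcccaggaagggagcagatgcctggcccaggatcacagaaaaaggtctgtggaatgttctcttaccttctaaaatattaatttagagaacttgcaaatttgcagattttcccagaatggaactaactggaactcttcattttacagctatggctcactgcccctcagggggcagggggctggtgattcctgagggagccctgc
Mirg promoter: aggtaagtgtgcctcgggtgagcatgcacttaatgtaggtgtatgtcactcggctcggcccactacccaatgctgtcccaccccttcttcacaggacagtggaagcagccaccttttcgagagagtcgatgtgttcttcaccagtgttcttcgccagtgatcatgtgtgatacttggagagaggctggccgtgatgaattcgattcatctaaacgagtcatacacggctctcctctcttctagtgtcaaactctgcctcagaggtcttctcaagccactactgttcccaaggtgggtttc
The *Meg3* window held 1 match to TGACGTCA, a palindrome, whose first base lies 57 bases before the start of the gene, and 588 of 32851 RefSeq promoter windows (1.79%) held it on either strand. TGACGTGG, the unfolded protein response element, and the ER stress response element, in which a CCAAT box is followed at a fixed distance by a second half-site, were found on neither strand of the windows of *Meg3*, *Rian*, *Mirg*, *Dlk1* and *Igf2*, and in 0.676% and 0.119% of all windows. TGCCGC, the hexamer that ZFP57 reads in methylated DNA, occurred in the first *Meg3* window and in 1 of 4 *Igf2* windows, against 11.6% of all windows. CpG dinucleotides numbered 13 in the *Meg3* window, 0 in that of *Rian* and 10 in that of *Mirg*, with a median of 7 over all windows. The RefSeq start of *Mirg*, at base 109734981, lies inside the GENCODE gene, and so does the whole *Mirg* window. That window holds miR-668-5p, miR-668-3p and miR-485-3p, so its CpG number is that of sequence within the GENCODE gene. A match of letters is a description and no measurement of binding.

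*H19* (ENSMUSG00000000031), a lincRNA, spans bases 142575529 to 142578143 on the minus strand of chromosome 7, with 2460 exonic bases. Of the 5 chow-fed libraries, 1 *Xbp1* fl/fl and 1 *Xbp1* LKO library had 1 count each and the rest none. HFS-fed *Xbp1* fl/fl pools had 0, 1 and 6 counts, or 0, 0.0509 and 0.294 CPM. The 3 HFS-fed *Xbp1* LKO pools had 25, 32 and 25 counts, or 1.02, 1.19 and 0.958 CPM, close to each other and all above every other library. The pooled level was 9.23 times that of the HFS-fed controls (interval 4.28 to 23.7) and 49.0 times that of the chow-fed *Xbp1* LKO libraries (interval 8.55 to 1959, since the latter held 1 count). No difference between the genotypes was detectable on chow, where 3 counts correspond to 0.128 to 0.173 CPM a library. The order of the HFS-fed *Xbp1* LKO pools was not that of the unit, as the pool with the least *Meg3* had the most *H19*.

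*Igf2* (ENSMUSG00000048583), from base 142650766 to 142666816 on the minus strand of chromosome 7, had no count in any of the 11 libraries, so its level was under 0.112 to 0.173 CPM, the worth of 3 counts a library. The overlapping antisense gene *Igf2os* and the neighbours *Ins2* and *Th* also had none, and *Nctc1* had 1. *Dlk1* (ENSMUSG00000040856), from base 109452823 to 109463336 on the plus strand of chromosome 12, had 12 counts in all. They were 0, 1 and 0 counts in chow-fed *Xbp1* fl/fl, 2 and 0 in chow-fed *Xbp1* LKO, none in HFS-fed *Xbp1* fl/fl, and 0, 6 and 3 in HFS-fed *Xbp1* LKO libraries. With 9 counts against none on the HFS diet, the pooled *Dlk1* level in *Xbp1* LKO hepatocytes was 2.36 times that of 3 counts over the control group. This value is no lower limit, since the 9 counts carry counting error of their own. The first *Xbp1* LKO pool had none, and the groups overlapped.

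On chow, *Meg3* and *Rian* were the members past an adjusted p of 0.05 by edgeR's quasi-likelihood test, both higher in *Xbp1* LKO hepatocytes, where 4.75% of the 13303 genes tested were called in either direction and 1.73% as higher. The groups did not overlap for *Meg3*, *Rian* and *Mirg*, against 15.4% of genes that were higher without overlap. On the HFS diet *Meg3*, *Rian* and *H19* were past it, against 4.08% called in either direction and 1.92% as higher, and the same 3 genes did not overlap, against 13.6% of genes. The genes were chosen on these contrasts, so nothing follows from the counts. Scaled by library totals alone, 89.5% of the genes called on chow and 86.9% of those on the HFS diet were higher, against 36.4% and 47.1% with TMM factors, and the median of all genes moved to log2 values of 0.33 and 0.27. *H19* was past the threshold on the HFS diet in 10 of 19 alternative fits, and was not tested in the fit on genes with a mean of at least 1 CPM. The call was lost with either block on replicate number. It was also lost without the first or the second *Xbp1* fl/fl pool, any 1 of the *Xbp1* LKO pools or the second chow-fed control.

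Single libraries moved the sizes. The *Meg3* log2 fold change ran from 6.12 to 6.42 on chow as each library was left out in turn. On the HFS diet it was 4.34 without the third and 5.47 without the second *Xbp1* LKO pool. For *Rian* it was 4.93 without the third and 6.28 without the first *Xbp1* fl/fl library on chow, and on the HFS diet 5.33 without the third *Xbp1* LKO pool and 7.01 without the second *Xbp1* fl/fl pool. For *Mirg* on chow it was 4.45 without the third and 8.45 without the first *Xbp1* fl/fl library, which held all 3 control counts, and on the HFS diet 0.96 without the third *Xbp1* LKO pool and 3.39 without the second *Xbp1* fl/fl pool. *H19* on the HFS diet was at 2.56 without the first and 5.13 without the third *Xbp1* fl/fl pool, the latter holding 6 of the 7 control counts.

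The diets were then compared within each genotype, with 0 of the 4 tested members past the threshold in either by edgeR. DESeq2 called *H19* higher with HFS feeding in *Xbp1* LKO hepatocytes. Without the filter on low counts, edgeR called *Rian* lower in *Xbp1* fl/fl hepatocytes. In *Xbp1* LKO hepatocytes it then called *Meg3*, *Rian* and *Mirg* lower and *H19* higher. Within *Xbp1* LKO hepatocytes, where 0.0601% of genes were called, all 3 HFS pools were below both chow-fed libraries for *Meg3*, *Rian* and *Mirg*. The fitted level was 4.32-fold lower for *Meg3* (log2 standard error 0.53), 2.74-fold lower for *Rian* (0.71) and 3.47-fold lower for *Mirg* (0.99). The log2 values moved from -2.77 to -1.63 for *Meg3*, -2.33 to -0.94 for *Rian* and -2.43 to -1.20 for *Mirg*, each without the third and without the second HFS-fed *Xbp1* LKO pool. *H19* went the other way, with every HFS pool above both chow-fed libraries. Such separation was found in 14.4% of genes for lower and 16.7% for higher levels. The diet and the pooling of 2 mice cannot be told apart in these values. In *Xbp1* fl/fl hepatocytes, where 0.428% of genes were called, the diets overlapped for each member, while 6.33% of genes were higher and 7.34% lower without overlap. *Meg3* ran from 0.520 to 0.797 CPM on chow and from 0.196 to 0.524 CPM on the HFS diet, an overlap that rests on 1 library of each.

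Whether the genotype difference depended on the diet was asked of each gene by an interaction term. For *Meg3* the difference in log2 fold change was -1.29 (standard error 1.16) and for *Rian* 0.78 (standard error 1.63). It was -3.44 (standard error 1.96) for *Mirg* and 2.94 (standard error 2.70) for *H19*. Over all 13303 genes, edgeR's quasi-likelihood test called 0 (0.0%), with 816 at an unadjusted p under 0.05, and DESeq2 called 31.

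Around the unit, 151 other genes are annotated with a start within 1 Mb, of which 47 had a count and 13 passed the filter. By edgeR's quasi-likelihood test 0 of the 13 were higher in *Xbp1* LKO hepatocytes on either diet, 1 was lower on chow and 2 were lower on the HFS diet, and DESeq2 called 1 and 2. *Gm34667* (ENSMUSG00000113063, chromosome 12, 109990882 to 110023873), a lincRNA 241 kb beyond *Mirg* on the opposite strand, was lower on both. Its level on chow was 8.55, 8.38 and 4.78 CPM in *Xbp1* fl/fl and 3.16 and 1.92 CPM in *Xbp1* LKO libraries, and on the HFS diet 8.05, 5.90 and 6.61 CPM against 1.43, 1.45 and 2.07 CPM. The log2 fold change was -1.51 on chow (standard error 0.32, adjusted p = 0.0236) and, with HFS feeding, -2.05 (standard error 0.29, adjusted p = 0.00367) by the same edgeR test. The call held in all 19 alternative fits on the HFS diet and in 15 of 19 on chow.

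At the far end of the cluster, *Dio3os* (ENSMUSG00000113581, chromosome 12, 110275385 to 110278172, minus strand), a non-coding RNA read away from the promoter of *Dio3*, had a pattern of its own. On chow it was at 0.276, 0.173 and 0.249 CPM in *Xbp1* fl/fl and at 0.171 and 0.218 CPM in *Xbp1* LKO libraries. With HFS feeding it was at 2.62, 0.764 and 3.33 CPM in *Xbp1* fl/fl pools and at 0.530, 0.372 and 0.115 CPM in *Xbp1* LKO pools. The HFS-fed controls were thus above every other library. *Dio3os* was lower in *Xbp1* LKO hepatocytes on the HFS diet (log2 fold change -2.71, standard error 0.58, adjusted p = 0.0256 by edgeR). The call was lost in 5 of 18 alternative fits, among them those without the first or the third control pool and without the second or the third *Xbp1* LKO pool. The diet effect in *Xbp1* fl/fl hepatocytes (log2 fold change 3.23, adjusted p = 0.0626 by edgeR) missed the threshold, but was past it in 3 of 18 alternative fits, DESeq2 among them. The difference between the diets in genotype effect was not past the threshold (log2 -2.45, standard error 1.06, adjusted p = 0.793 by edgeR). *Dio3*, the deiodinase that inactivates thyroid hormone, had 8, 4 and 11 counts in HFS-fed *Xbp1* fl/fl pools and 1, 1 and 0 in HFS-fed *Xbp1* LKO pools. Chow-fed *Xbp1* fl/fl libraries had none and chow-fed *Xbp1* LKO libraries 2 and 0. It did not pass the filter, and its pooled level in HFS-fed *Xbp1* LKO hepatocytes was 0.0685 times that of the controls (interval 0.00783 to 0.277). *Rtl1*, the antisense partner of miRNAs between *Meg3* and *Rian*, had 2 counts in all, and *Begain* none.

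Within 1 Mb of *H19* and *Igf2*, 37 of 95 annotated genes had a count and 13 were tested. By edgeR 0 of the 13 were past the threshold on either diet, 2 on chow and 3 on the HFS diet were at an unadjusted p under 0.05, and DESeq2 called 2 and 1, with log2 fold changes of -0.71 to 1.34 on chow and -0.55 to 1.46 on the HFS diet.

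**Figure D3:**
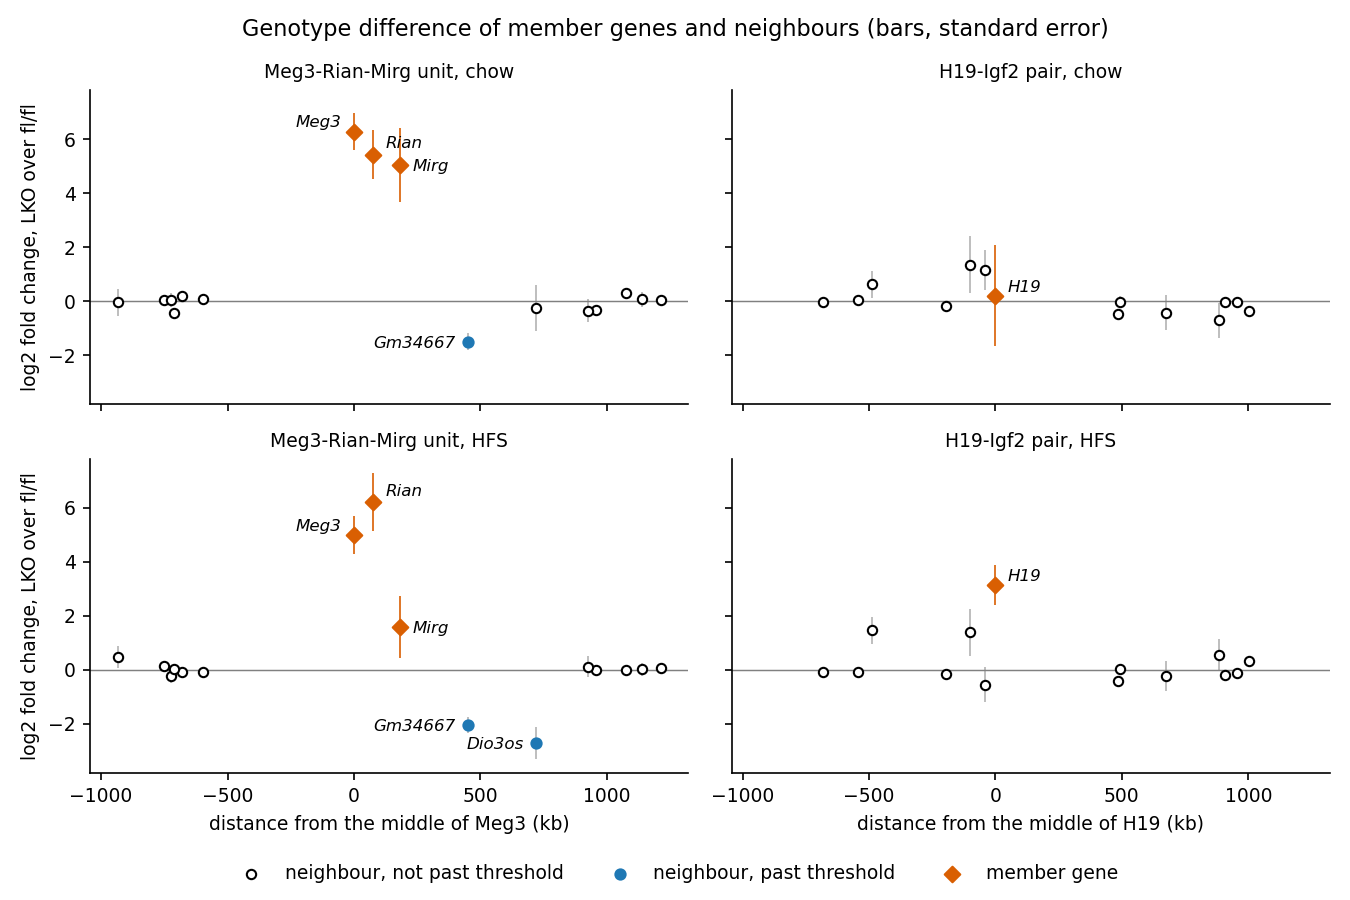
Log2 fold change of *Xbp1* LKO over *Xbp1* fl/fl hepatocytes (y axis, bars are standard errors) against the distance of the gene from the middle of *Meg3* or *H19* in kb (x axis), on chow (top) and the HFS diet (bottom). Diamonds are member genes, filled circles neighbours past the threshold and open circles other tested neighbours; the members of the unit stand above neighbours near 0, and *Gm34667* and, on the HFS diet, *Dio3os* lie below.

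Imprinted genes outside both clusters were compared in the same way. Of 56 listed, 35 were tested, with a median log2 fold change of -0.07 on chow and -0.01 on the HFS diet, beside medians near 0 over all genes. By edgeR, 3 were higher and 2 lower in chow-fed *Xbp1* LKO hepatocytes, and 3 were higher and 1 lower after HFS feeding, beside the 4.75% and 4.08% of all genes called on the 2 diets. The largest difference was that of *Slc22a3* (ENSMUSG00000023828, chromosome 17, 12418960 to 12507704, minus strand), an organic cation transporter. It was at 3.48, 1.91 and 2.14 CPM in *Xbp1* fl/fl and 24.3 and 39.8 CPM in *Xbp1* LKO libraries on chow. With HFS feeding it was at 2.38, 3.46 and 2.89 CPM against 20.1, 32.2 and 38.8 CPM. All *Xbp1* LKO libraries were above all controls. Its log2 fold change was 3.67 (standard error 0.33, adjusted p = 0.00133) and 3.38 (standard error 0.31, adjusted p = 8.7e-04) by edgeR, past the threshold in all 19 alternative fits on both diets.

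*Slc22a3* lies in the imprinted domain of *Igf2r*, the receptor that clears IGF2 (ENSMUSG00000023830, chromosome 17, 12682406 to 12769664, minus strand), whose level went the other way. *Igf2r* was at 61.9 to 81.5 CPM in chow-fed *Xbp1* fl/fl and 47.1 and 38.9 CPM in chow-fed *Xbp1* LKO libraries. HFS-fed controls were at 74.8 to 83.5 CPM and HFS-fed *Xbp1* LKO pools at 44.0 to 47.9 CPM. The difference was larger than the spread, with log2 fold changes of -0.67 (standard error 0.14, adjusted p = 0.0225) and -0.81 (standard error 0.13, adjusted p = 0.00539) by edgeR. The HFS call held in all 19 alternative fits and the chow call in 14. *Airn*, the non-coding RNA that overlaps the 5′ part of *Igf2r* on the other strand, was at 0 to 0.204 CPM in all controls and 0.530 to 1.46 CPM in all *Xbp1* LKO libraries. Its log2 fold changes were 3.18 (adjusted p = 0.0444) and 3.00 (adjusted p = 0.0295) by edgeR, lost in 8 and 5 of 18 alternative fits. The strand setting of the counting is not given in the sources used here, so reads of *Airn* and of *Igf2r* may not have been kept apart. On chow *Blcap* was also higher (0.63, adjusted p = 0.0250) and *H13* lower (-0.67, adjusted p = 0.0468), and on the HFS diet *Qpct* was higher (0.84, adjusted p = 0.0317), each lost in 6 or more alternative fits.

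**Figure D4:**
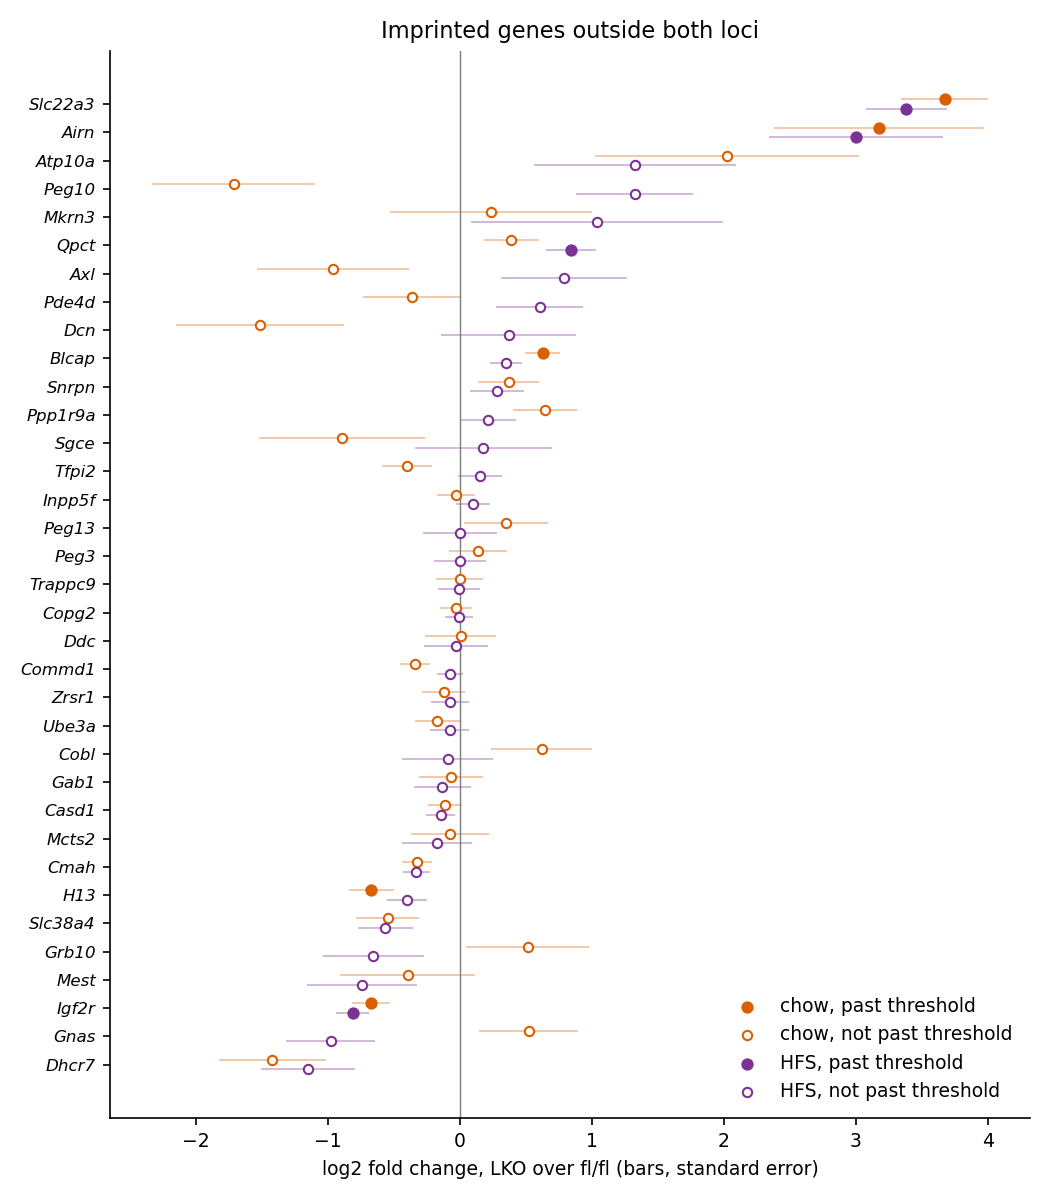
Log2 fold change of *Xbp1* LKO over *Xbp1* fl/fl hepatocytes (x axis, bars are standard errors) for the 35 tested imprinted genes outside both clusters (y axis), on chow and on the HFS diet. Filled points are past an adjusted p of 0.05 by edgeR; *Slc22a3*, *Airn* and *Igf2r* are filled on both diets.

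In the Kcnq1ot1 domain, which lies beside *H19* and *Igf2* and is regulated apart from them, 9 of 17 genes were tested. EdgeR called 0 of them on either diet, with 3 at an unadjusted p under 0.05 on each, while DESeq2 called 3 on chow and 2 on the HFS diet. The median log2 fold change was -0.42 and -0.20, and all 9 were negative on chow. The smallest p on chow were those of *Cars*, a transfer RNA synthetase (-0.38, adjusted p = 0.0588 by edgeR), and *Dhcr7*, the last enzyme of cholesterol synthesis (-1.42, adjusted p = 0.0709 by edgeR). After HFS feeding they were those of *Cars*, with the other sign (0.31, adjusted p = 0.0803 by edgeR), and *Cd81*, a tetraspanin (-0.41, adjusted p = 0.0994 by edgeR). Proteins that keep imprints or methylate DNA, such as *Zfp57*, *Trim28*, *Dnmt1* and *Uhrf1*, made a list of 34, of which 28 were tested, with 0 called by edgeR and by DESeq2 on both diets, and 2 on chow and 1 on the HFS diet at an unadjusted p under 0.05. Its median log2 fold change was 0.03 on chow and -0.02 on the HFS diet. On chow the chromatin remodeller *Atrx* (-0.44, adjusted p = 0.168 by edgeR) and its partner *Daxx* (0.36, adjusted p = 0.197 by edgeR) had the smallest p. After HFS feeding *Hells*, a helicase needed for DNA methylation (1.20, adjusted p = 0.233 by edgeR), and *Atrx* (-0.25, adjusted p = 0.430 by edgeR) had them.

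*Igf2* acts through receptors and binding proteins, and 17 of 23 genes of that axis were tested. Besides *Igf2r*, 1 of them was called by edgeR on the HFS diet and 0 on chow. *Igfbp2*, an IGF binding protein secreted by hepatocytes, was lower on the HFS diet, at 296, 241 and 123 CPM in *Xbp1* LKO against 742, 434 and 659 CPM in *Xbp1* fl/fl pools (log2 fold change -1.48, standard error 0.35, adjusted p = 0.0386), a call lost in 5 of 19 alternative fits. Of the Notch pathway, which *Dlk1* is held to modulate, 15 of 20 genes were tested. On chow *Hes6*, a transcription factor, was lower (log2 fold change -0.77, adjusted p = 0.00979 by edgeR, lost without the second *Xbp1* LKO library) and *Jag1*, a ligand, higher (1.12, adjusted p = 0.0377 by edgeR, lost in 13 of 19 alternative fits), and on the HFS diet edgeR called 0, with 4 at an unadjusted p under 0.05, and DESeq2 called 2.

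*H19*, *Igf2* and *Dlk1* are transcripts of fetal liver, so other fetal liver genes were set beside them. Of 24 listed, 11 were tested. *Nkd1*, an inhibitor of Wnt signalling, was higher in *Xbp1* LKO hepatocytes on both diets, at 2.13 and 2.45 CPM against 0.231 to 1.05 CPM on chow, and 3.98 to 7.13 CPM against 0.833 to 1.02 CPM on the HFS diet. Its log2 fold change was 1.94 (adjusted p = 0.0313) and 2.56 (adjusted p = 0.00463) by edgeR, and the HFS call held in all 19 alternative fits, while the chow call was lost in 7, among them those without either *Xbp1* LKO library. *Ly6d*, a surface protein, was higher on the HFS diet (4.59, adjusted p = 0.0301 by edgeR), at up to 39.6 CPM in *Xbp1* LKO pools against at most 2.39 CPM in the controls, a call lost without the first or the third control pool and without the second or the third *Xbp1* LKO pool. *Sox9*, a transcription factor of biliary and progenitor cells, was lower on chow (-1.54, adjusted p = 0.0167 by edgeR), a call lost without either *Xbp1* LKO library. *Afp*, the best known of these genes, was at 3.42, 5.17 and 8.24 CPM in HFS-fed *Xbp1* LKO and 2.19, 2.34 and 2.20 CPM in HFS-fed *Xbp1* fl/fl pools, and missed the threshold (1.32, adjusted p = 0.0632 by edgeR). The list's median log2 fold change was 0.14 on chow and 1.36 on the HFS diet, with 6 and 8 of the 11 positive. At an unadjusted p under 0.05 by edgeR were 3 and 7 of the 11, beside 2561 and 2322 of all 13303 genes tested. DESeq2 called 3 and 4 of the list. EdgeR's calls stand beside 4.75% and 4.08% of all genes. The 11 postnatal repressors of fetal liver genes, among them *Zbtb20* and *Zhx2*, were all tested. EdgeR and DESeq2 called 0 on both diets, 2 were at an unadjusted p under 0.05 on chow and 0 on the HFS diet, and the median was 0.01 and -0.02. The pioneer factors *Foxa1* (0.45, adjusted p = 0.161 by edgeR) and *Foxa2* (0.45, adjusted p = 0.209 by edgeR) had the smallest p on chow, and *Foxa2* had -0.30 (adjusted p = 0.402 by edgeR) on the HFS diet.

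Markers of other cells that hepatocyte preparations can hold were read in the same libraries. Of 21 endothelial markers, all tested, 21 had a negative log2 fold change on chow (median -1.26) and 19 on the HFS diet (median -0.39), with 0 called by edgeR. On chow 16 were at an unadjusted p under 0.05 and DESeq2 called 11, and on the HFS diet both counts were 0. Their summed level was lowest in the chow-fed *Xbp1* LKO libraries, at 230 and 167 CPM, where the *Meg3* unit was highest, and ran from 243 to 451 CPM elsewhere. The 19 stellate cell and fibroblast markers, 15 of them tested, were likewise lowest there, at 17.5 and 17.7 CPM summed, against 27.2 to 74.9 CPM. Of the 15, all were negative on chow (median -1.20) and 11 positive on the HFS diet (median 0.38), with 0 called by edgeR on both diets, 3 and 1 at an unadjusted p under 0.05, and 2 and 0 called by DESeq2. For 16 macrophage markers the sum on chow was 23.1 and 33.3 CPM in *Xbp1* LKO and 85.3, 19.8 and 21.1 CPM in *Xbp1* fl/fl libraries. With HFS feeding it was 54.0, 60.9 and 102.6 CPM in *Xbp1* LKO and 38.1 to 55.5 CPM in *Xbp1* fl/fl pools. Of the 15 tested, 14 were negative on chow (median -0.48) and all 15 positive on the HFS diet (median 0.64). EdgeR and DESeq2 called 0 on both diets, with 0 on chow and 2 on the HFS diet at an unadjusted p under 0.05. No marker of these 3 lists was at 0 in all libraries. Their part in the levels of the members was not tested.

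For *H19*, which was high in the HFS-fed *Xbp1* LKO pools, the diet effect in *Xbp1* LKO hepatocytes was positive for all 15 tested stellate markers (median 2.18), all 15 macrophage markers (median 1.31) and all 21 endothelial markers (median 1.53). EdgeR called 0 of each, with 9, 8 and 20 at an unadjusted p under 0.05, and DESeq2 called 5, 0 and 14. The first *Xbp1* fl/fl library on chow had 71.0 CPM of stellate and 85.3 CPM of macrophage markers, above 2 of the 3 HFS-fed *Xbp1* LKO pools in each sum, and no count of *H19*. Its *Meg3* unit was at 2.15 CPM. The cholangiocyte markers, 10 of 16 tested, summed to 33.5 to 34.3 CPM in chow-fed *Xbp1* LKO and 44.3 to 59.8 CPM in HFS-fed *Xbp1* LKO libraries. In *Xbp1* fl/fl libraries the sum was 39.7 to 49.2 CPM on chow and 46.4 to 58.3 CPM on the HFS diet. For genotype, 5 of the 10 were positive on chow (median -0.21) and 6 on the HFS diet (median 0.73). At an unadjusted p under 0.05 by edgeR were 5 and 7, and DESeq2 called 2 and 3. The diet effect in *Xbp1* LKO hepatocytes was positive for 9 of the 10 (median 0.73). EdgeR and DESeq2 called 0 there, with 1 at an unadjusted p under 0.05. On the HFS diet edgeR called *Anxa13* and *Ddr1* higher and *Wfdc2* lower, and on chow *Sox9* and *Wfdc2* lower. The HFS calls were lost in 6 of 17, 4 of 19 and 5 of 19 alternative fits. All 3 were lost without the third control pool, and likewise without the second or the third *Xbp1* LKO pool. Both chow calls were lost without the second *Xbp1* LKO library.

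**Figure D5:**
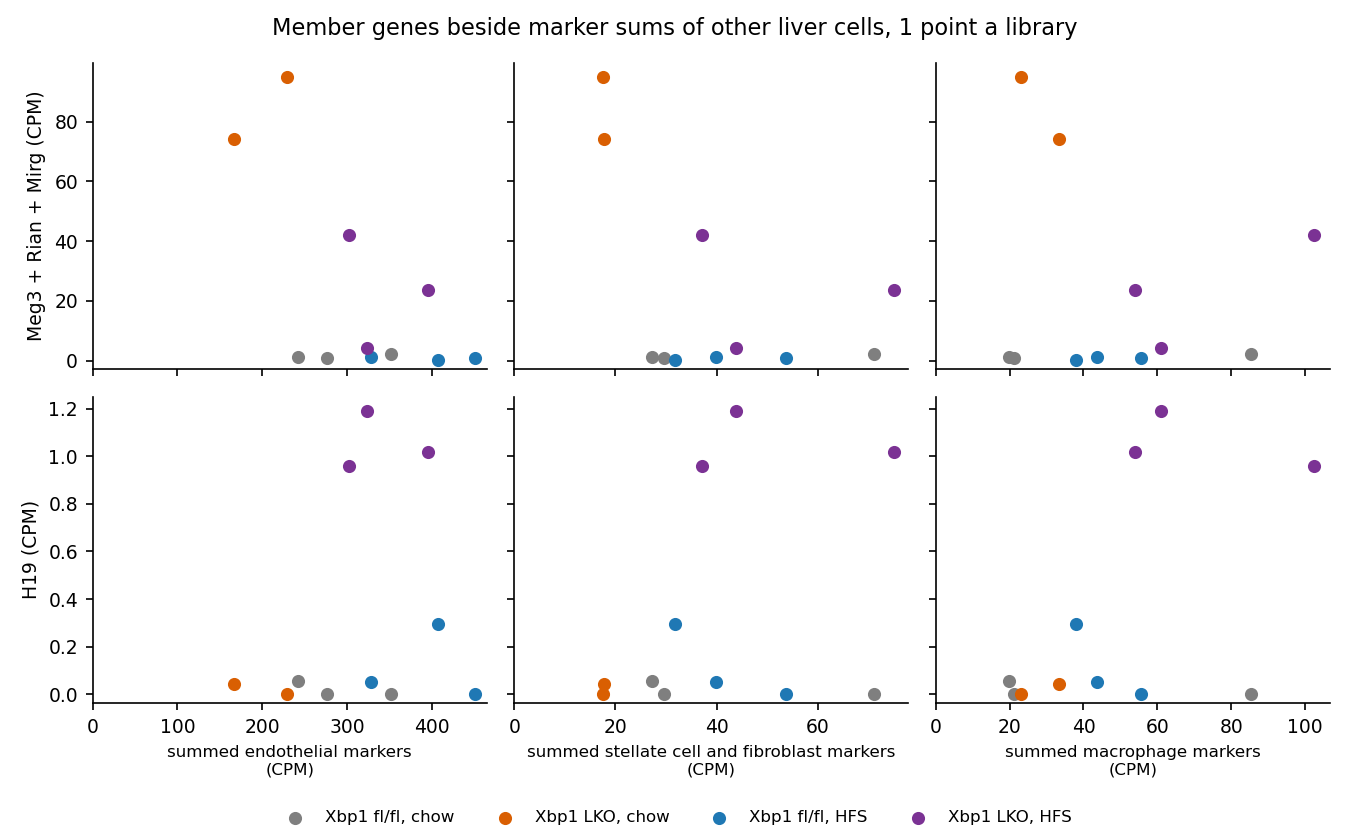
Summed CPM of *Meg3*, *Rian* and *Mirg* (top) and CPM of *H19* (bottom) against the summed CPM of endothelial, stellate cell and fibroblast, and macrophage markers (x axes), 1 point a library. The chow-fed *Xbp1* LKO libraries have the highest unit sums, 94.9 and 74.2 CPM, at the lowest endothelial and stellate sums, and the first chow-fed control has high stellate and macrophage sums with no *H19*.

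The genes whose log2 CPM followed each member most closely over the 11 libraries were sought among 11130 other tested genes with a mean of at least 1 CPM. For *Rian*, the member *Meg3* itself had a Pearson correlation of 0.969, ahead of *Slc1a5*, a glutamine transporter, at 0.948, *Tubb6* at 0.930 and *Aprt* at 0.926. For *Meg3* they were *Washc2* at 0.970, *Nupr1*, a stress-induced chromatin protein, at 0.945 and *Rap1gap2* at 0.928. *Nupr1* was at 10.5 and 47.3 CPM in chow-fed and 3.79, 4.87 and 21.4 CPM in HFS-fed *Xbp1* LKO libraries, and at 0.143 to 0.349 CPM in all controls. *Mirg* was followed by *Gm15344*, *Ruvbl1* and *Ubtf*, at 0.908, 0.891 and 0.878. For *H19*, whose counts are few, *Pdgfa* had 0.933 and *Lipa*, the lysosomal acid lipase, and *Wwc1* 0.930 each. Apart from *Meg3*, none of these genes is a member or a listed gene of either cluster. The 11 points fall into 4 groups, and the values describe likeness over these libraries alone.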

How the data were processed

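Hepatocyte RNA of 11 mouse libraries was sequenced. The authors deposited raw counts per gene, whole numbers over 54232 Ensembl identifiers, with totals of 19191032 to 23888401. Their methods name kallisto with tximport, 50 bp single-end reads and a stranded mRNA kit. The submitters' processing notes name cutadapt 1.13, STAR, HTSeq 0.6.1p1, DESeq2 and mm10, and the labels a total RNA kit. Which route made the files, the annotation release and the strand setting are not given in the sources used here, so reads shared by overlapping or near-identical genes are uncertain. Names and positions came from GENCODE M21 (GRCm38), and sequences from RefSeq (GRCm38.p6).

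Counts were fitted across all genes with edgeR 4.0.16 in R 4.3.3, using filterByExpr with a minimum count of 10, TMM factors, 1 factor of 4 groups over 11 libraries, and quasi-likelihood tests with Benjamini-Hochberg adjustment at 0.05. Fold changes are edgeR's own, and log2 CPM for correlations carry a prior count of 2. Levels are CPM. Ratios of pooled counts carry 95% exact intervals, and 3 counts served as the floor for 0. Tables were made with Python 3.11.15, pandas 2.3.3 and scipy 1.17.1. Alternatives were DESeq2 1.42.0, RLE factors, library totals, no filter, a mean of at least 1 CPM, only the groups compared, replicate blocks and leaving out each library.

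Named besides the members were genes of the lists other than cell markers, and neighbours, past the threshold in a genotype comparison, those with the smallest p in lists without a call, and the genes most correlated with each member. A further gene under this rule is not reported here. *Dio3os* in further comparisons and *Afp* were named after their values were seen. The members and lists were chosen with earlier results of these data known. Nothing shows that chow libraries of a group came from separate litters or days, so p-values measure only the spread between these libraries. Tested on simulated data for the genotype difference on the HFS diet (12933 genes, 200 changed), the edgeR step recovered 57 of 97 genes changed 2-fold (58.8%) and 78 of 99 changed 4-fold (78.8%), with 7 false calls.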

Additional observations from a re-analysis of the deposited data

How the results depend on the processing

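Genes past the threshold numbered 632 for genotype on chow, 543 for genotype on the HFS diet, 57 for diet in *Xbp1* fl/fl, 8 for diet in *Xbp1* LKO and 0 for the interaction. DESeq2 gave 1115, 987, 175, 210 and 31, and no filter on low counts 1507, 1438, 499, 722 and 269. Library totals gave 3000 and 1483 for genotype on the 2 diets. Fits on only the groups compared gave 233 for genotype on chow and 0 for diet in *Xbp1* LKO. Leaving out each library gave 69 (without the second chow-fed *Xbp1* LKO library) to 762 for genotype on chow, 184 (without the second HFS-fed *Xbp1* LKO pool) to 662 on the HFS diet, 6 (without the third HFS-fed *Xbp1* fl/fl pool) to 59 for diet in *Xbp1* fl/fl, 0 to 36 for diet in *Xbp1* LKO and 0 throughout for the interaction. The cause was not tested.

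Of 291 refitted log2 fold changes of members, 273 moved by less than the spread and 18 by more. Some of those not called changed sign as each library was left out. *H19* for genotype on chow ran from -2.05 to 2.28, and *Mirg* for diet in *Xbp1* fl/fl from -0.15 to 5.06. Of 527 refits of other named calls, 409 kept and 118 lost the call, and none turned its direction. *Dio3os* for genotype on chow, which was not called, turned to 0.059 with library totals. Few counts in the controls limit every fold change of the members.

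A replicate block gave 455, 412, 38, 19 and 0 genes, and a block on the number in the file names 488, 429, 40, 53 and 0. Same-numbered libraries had a mean correlation of deviations of -0.00866 over 15 pairs, and 3 of 11 correlated best with their own number, so the numbers were not taken to pair the libraries. With the blocks, *Meg3* on chow had a log2 fold change of 6.78 and 5.87.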
